A study of Mus musculus with 14 samples.

Results

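The gene described here is Terc, which encodes the RNA subunit of telomerase, measured in E12.5 mouse embryos from the entire head. It was taken as the locus whose gene names include Terc in the authors' tables, where it shares its entry with the clone-based name RP23-404J7.3. This is 1 locus of 67811, and of the 18217 loci that passed the filter on low values (3 or more libraries at 0.5 FPKM or above). The neighbouring unnamed or clone-named loci within 10 kb of its range were taken with it, and there were 2. All libraries came from C57BL/6J heads, brain included, with 6 from Zcchc8-/- embryos (KO), 3 from Zcchc8+/- embryos (HET, numbered 3 to 5) and 5 from Zcchc8+/+ embryos (WT). The alleles behind these genotypes are not described in the labels beyond the plus and minus signs. Libraries were made with a stranded mRNA kit, which selects polyadenylated RNA, and the unit is FPKM, which scales fragments by transcript length and by the library total.

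Telomerase adds telomeric repeats to chromosome ends. Its reverse transcriptase, TERT, copies a short template within Terc, and the 3′ part of Terc folds into a box H/ACA domain that is bound by dyskerin, NOP10, NHP2 and GAR1. Mature Terc carries no poly(A) tail. In human cells, telomerase RNA is first made as a longer transcript that receives short oligo(A) tails from PAPD5 and is trimmed by PARN, or is degraded by the nuclear exosome. ZCCHC8 holds together the complex that targets nuclear transcripts to this exosome, where it joins the helicase MTR4 (Skiv2l2 in the tables) and the RNA-binding protein RBM7. Because of the poly(A) selection, the Terc values below cover RNA that was retained by it, and the total level of Terc in these heads was not measured.

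The 5′ end of the RNA is printed here because it holds the template that telomerase copies. The GENCODE M21 transcript of Terc has 423 bases and 1 exon, lies on the minus strand at chr3:96414437-96414859 (mm10) and is annotated as a non-coding RNA. Its first 150 bases are chr3:96414710-96414859, read on the minus strand, and capitals mark the telomeric template letters.
Terc, bases 1 to 150: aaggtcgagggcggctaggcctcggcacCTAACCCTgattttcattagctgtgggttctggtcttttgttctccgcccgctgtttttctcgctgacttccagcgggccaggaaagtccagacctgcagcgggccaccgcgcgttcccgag
The template letters begin at base 29 of this transcript. They are found once in it and in 2.03% of the 141767 transcripts of the annotation on the given strand. The RefSeq entry is 397 bases long and begins at base 27 of the GENCODE one, so the template begins at its base 3.

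The ACA box is what Terc shares by sequence with the box H/ACA RNAs whose loci are described further on. The last 30 bases of the transcript are therefore set here beside those of a pair of these RNAs. Their loci were also called higher in KO heads, and that of Snora20 passed the filter only through KO libraries. Capitals mark the ACA box.
Terc (chr3, minus strand): aagtgcacccggaactcggttctcACAacc
Snora20 (chr17, plus strand): ttttgtctctcgtacatggtctagACAttg
Snora16a (chr4, plus strand): tgatctgcaacattgtggaaaatgACAgct
All 3 carry the letters exactly 3 bases before the end. This holds for 35 of 42 transcripts of genes named Snora (83.3%) and for 2.45% of all 141767 transcripts.

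The authors' range for the Terc locus is wider than the RNA. It runs over 4222 bases of chromosome 3, from 96410692 to 96414913 (mm10), and GENCODE Terc fills 10.02% of it. A further 54 bases lie upstream of the GENCODE start and 3745 downstream of the 3′ end. In that downstream stretch, 1075 bases past the end of Terc, the annotation holds 1 other gene, the processed pseudogene Gm21960 on the same strand. The name RP23-404J7.3 is not among the GENCODE M21 gene names. The deposited values are 1 FPKM per locus without positions, so fragments of Terc itself, of RNA that runs past its 3′ end and of the pseudogene cannot be told apart within the value. Terc has no stretch of 31 bases in common with any transcript of another gene, while 27 of the 422 such stretches of the pseudogene (6.40%) are also found in Rps7, a ribosomal protein gene on chromosome 12. Rps7, looked up after its values could be seen, had 739 ± 63.6 FPKM in KO (SD, n = 6), 737 ± 15.5 FPKM in HET (SD, n = 3) and 711 ± 61.4 FPKM in WT heads (SD, n = 5), and did not pass the test in KO against WT (0.06 log2, limma-trend adjusted p = 0.601).

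The files hold no read counts, so absolute depth is unknown. Relative depth, read from the lowest FPKM steps and set to 1 in WT1, was 1.15 to 1.49 in KO, 1.23 to 1.32 in HET and 1.0 to 1.20 in WT libraries. Loci at 0.1 FPKM or more numbered 22666 to 25272 in KO, 19927 to 20642 in HET and 20109 to 20543 in WT libraries. Zcchc8 RNA fitted the labels: its 6 KO libraries had 9.27, 14.4, 15.1, 15.1, 20.6 and 18.7 FPKM (KO1 to KO6), the 3 HET libraries 25.96, 23.98 and 27.24 FPKM, and the 5 WT libraries 40.8, 38.1, 40.8, 36.6 and 42.3 FPKM. The 3 groups did not overlap. The labels do not tie each library to an embryo of its own, so p-values measure the spread between these samples, which may be partly technical.

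The value of the Terc locus was several times higher in KO heads than in WT heads, in every KO library. The Terc locus had 6.57, 7.27, 7.57, 8.08, 11.5 and 8.78 FPKM in KO1 to KO6, against 1.33, 1.68, 1.85, 1.23 and 1.15 FPKM in WT1 to WT5. KO5 was the highest library and KO1 the lowest of its group, and the lowest KO library was still 3.54-fold above the highest WT library, so the groups did not overlap. The means were 8.29 ± 1.72 FPKM in KO (SD, n = 6) and 1.45 ± 0.305 FPKM in WT heads (SD, n = 5), which puts KO at 572% of the WT mean. Relative to the mean, the libraries varied about equally in both groups, with a coefficient of variation of 20.8% in KO and 21.1% in WT. The difference between mean log2(FPKM + 0.1) values was 2.44 (SE 0.16, 95% interval 2.09 to 2.79, limma-trend adjusted p = 1.1e-08), or 5.41-fold (95% interval 4.24 to 6.90). Permuting the FPKM values exactly, with a two-sided p of 2 times the smaller tail, gave p = 0.00433, the lowest value possible with 6 and 5 libraries. In the same fit 24.6% of all tested loci were called in KO against WT, 19.0% higher and 5.61% lower. Of the 3463 loci called higher, 2236 passed the filter only through KO libraries. Of the 15177 tested loci that passed it in HET and WT libraries alone, 1227 were called higher. In bulk heads, more RNA per cell and more of the cells that make it cannot be told apart.

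**Figure D1:**
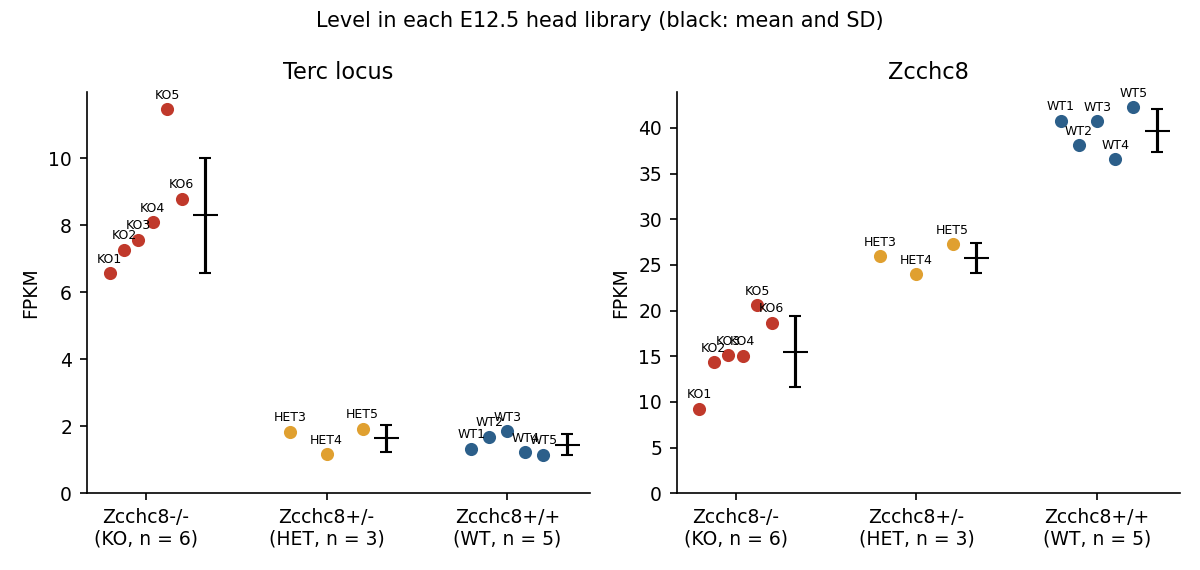
FPKM of the Terc locus (left) and the Zcchc8 locus (right) in each of the 14 libraries, by genotype, with the mean and SD of each group as a bar. The KO libraries sit between 6.57 and 11.5 FPKM for Terc, above all HET and WT libraries, which lie between 1.15 and 1.92, while for Zcchc8 they sit below all others.

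At the Terc locus, HET heads did not differ from WT heads by more than the spread between libraries. The 3 HET libraries had 1.83, 1.17 and 1.92 FPKM in HET3 to HET5, and 2 of them lay within the WT range while HET5 was slightly above it. Their mean was 1.64 ± 0.409 FPKM (SD, n = 3), 113% of the WT mean. The HET against WT difference was 0.16 log2 (SE 0.20, 95% interval -0.26 to 0.58, limma-trend adjusted p = 1), or 1.12-fold with a 95% interval of 0.833 to 1.498, and the two-sided exact permutation test gave p = 0.464 where 3 against 5 libraries allow no less than 0.0357. The interval leaves room for a rise of up to 1.498-fold and for a fall, so equality was not shown. Of all tested loci 0.00549% were called in this comparison, which is 1 locus, and 354 had an unadjusted limma-trend p under 0.05.

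Against HET heads, KO heads were 2.28 log2 higher at the Terc locus (SE 0.19, 95% interval 1.87 to 2.69, limma-trend adjusted p = 2.0e-07), or 4.85-fold (95% interval 3.65 to 6.44). The lowest KO library was 3.43-fold above the highest HET library. In this comparison 22.3% of all tested loci were called, 17.9% higher and 4.36% lower. The order of the means was thus KO, HET and WT, in which the neighbours HET and WT did not differ beyond their spread. The two-sided exact permutation p was 0.0238, the smallest that 6 against 3 libraries allow.

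The Terc locus was higher in KO in both sexes, which were read from sex-linked RNA in each library. Female KO libraries averaged 8.72 FPKM (6.57 to 11.5, n = 4), against 1.41 FPKM in the 2 female WT libraries, which had 1.68 and 1.15 FPKM. Male KO libraries averaged 7.42 FPKM (7.27 and 7.57), against 1.47 FPKM in the 3 male WT libraries (1.23 to 1.85). The KO minus WT difference was 2.54 log2 in females and 2.28 log2 in males, and the difference between these did not pass the test (0.26 log2, limma-trend adjusted p = 0.758).

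The Terc difference was large for its level but not at the top of the table. Of the 18217 tested loci, 1406 had a larger KO minus WT difference, so Terc stood above 92.3% of them. Among tested loci with a gene name, 510 of 16213 had a larger one. Among loci whose WT mean was between 1 and 2 FPKM, as that of Terc was, 15 of 1480 had a larger difference, the median difference was -0.04 log2, and 16.3% were called higher. Among the 3463 loci called higher, where the median difference was 2.04 log2, Terc stood above 60.7%. By adjusted p, 580 tested loci came before it.

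**Figure D2:**
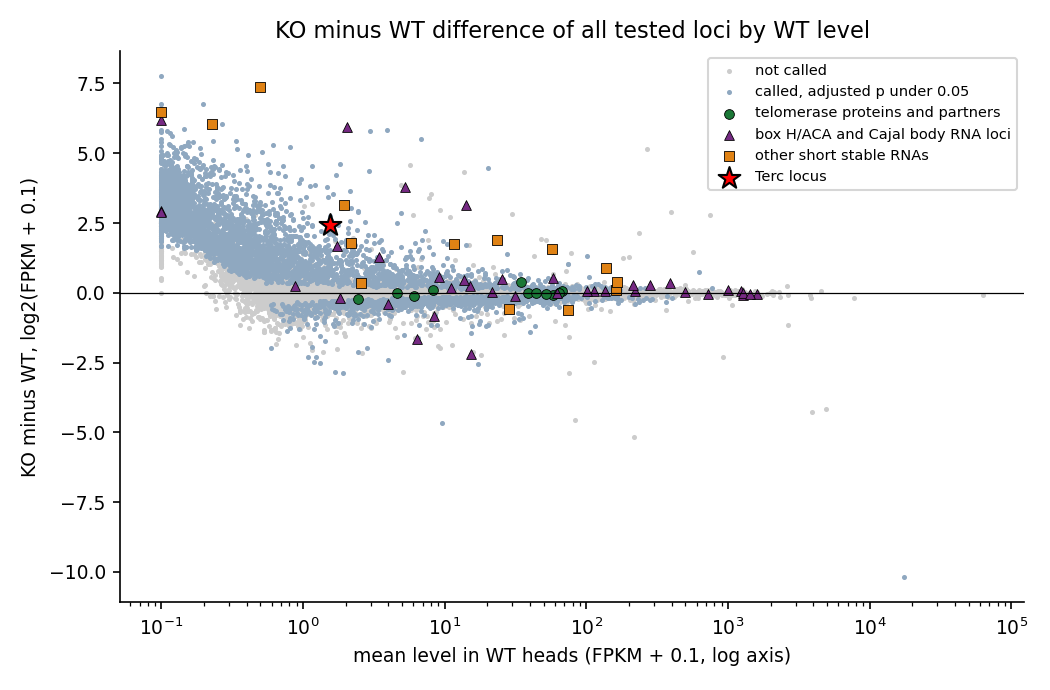
KO minus WT difference of mean log2(FPKM + 0.1) against the WT mean FPKM (log axis) for all tested loci, with Terc and the members of the gene lists marked. Terc lies at 2.44 log2 and 1.45 FPKM, above most loci of similar WT level, and the members of the telomerase particle list lie between -0.21 and 0.38 log2.

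The loci next to Terc were at or near 0 in every genotype. RP23-404J7.5, which lies 7744 bases from the range, was listed at 0 in all 14 libraries. RP23-404J7.4, 8678 bases away, was listed at 0.0704 FPKM in KO6 and at 0 in the other 13 libraries. The same window holds 2 loci with other names. Gm24136, 7820 bases away, was at 0 throughout, and the pseudogene Pafah1b1-ps1, 1633 bases beyond the downstream edge, was listed at 0.117 FPKM in KO2, 0.0187 FPKM in KO5, 0.0354 FPKM in KO6 and 0 elsewhere. None of the 4 reached the filter, so none was tested, and no other locus overlaps the range itself.

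Within 100 kb there were 25 other loci, of which 15 were at 0 in all libraries and 3 were tested. Both of the tested loci with a name were called higher in KO, as were 19.0% of all tested loci. Rnu1b6, a gene for the U1 small nuclear RNA of the spliceosome and 43296 bases away, had 41.3 ± 16.2 FPKM in KO (SD, n = 6), 10.9 ± 1.97 FPKM in HET (SD, n = 3) and 11.6 ± 1.86 FPKM in WT heads (SD, n = 5), a KO minus WT difference of 1.75 log2 (limma-trend adjusted p = 3.0e-05). A locus named Gm22614, 73019 bases away, had 1.29 ± 0.181 FPKM in KO, 0.0650 ± 0.0152 FPKM in HET and 0.0787 FPKM in WT heads, and was 3.00 log2 higher in KO than in WT (limma-trend adjusted p = 9.7e-09). This locus passed the filter only through KO libraries, so it had to be higher in KO to be tested. The third, without a name, differed by 1.20 log2 (limma-trend adjusted p = 0.788), with 4 of 6 KO libraries at 0. The nearest protein-coding loci are farther off. The locus of Fcgr1, an immunoglobulin receptor gene, that was taken here is 1 of 2 with that name. It lies 116723 bases away and was listed at 0 in all libraries. Hfe2, which encodes hemojuvelin and lies 110259 bases away on the other side, had 1.17 ± 0.667 FPKM in KO, 1.81 ± 0.270 FPKM in HET and 2.01 ± 0.457 FPKM in WT heads and did not pass the test (-0.90 log2, limma-trend adjusted p = 0.0673). It was called lower after quantile normalization (-1.54 log2, 0.0122), with sex as a covariate (-1.0004 log2, 0.0477) and without KO5 (-1.11 log2, 0.0142).

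**Figure D3:**
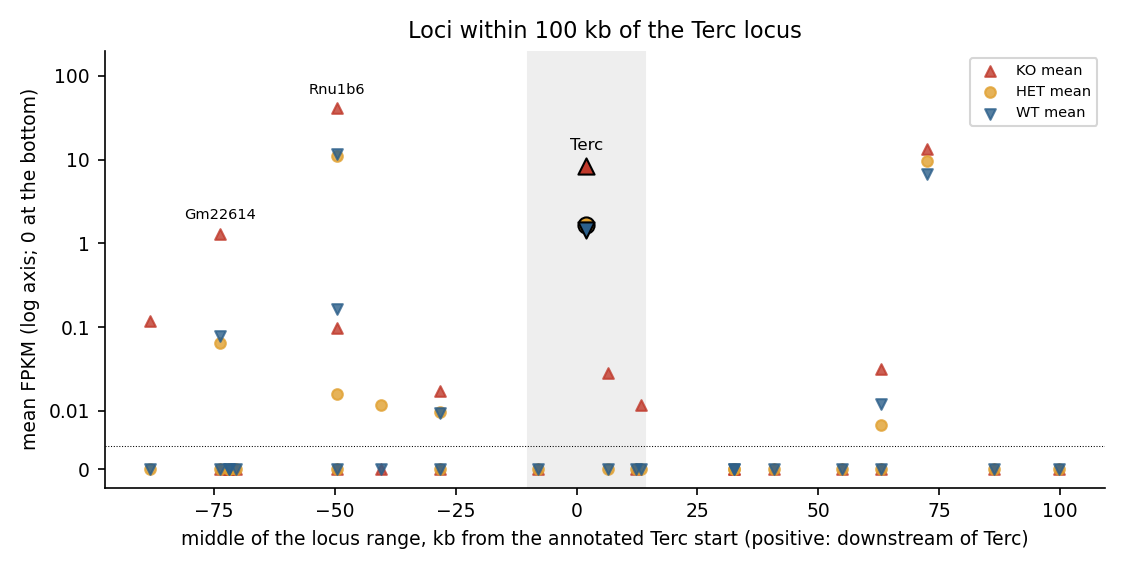
Mean FPKM per genotype (log axis, values of 0 drawn at the floor) of the loci within 100 kb of Terc, by distance from the Terc start, with the 10 kb window around the locus shaded. Inside the window Terc stands at 8.29 FPKM in KO, 1.64 in HET and 1.45 in WT heads, and its neighbours are at or near 0 in every genotype.

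Of the genes for proteins that make up and assemble the telomerase particle, Nop10 alone passed the test with the FPKM values as deposited. Of 11 tested loci on this list, 1 was called higher and 0 lower in KO against WT, where 19.0% of all tested loci were called higher and 5.61% lower, and the median difference was -0.0051 log2, against -0.0019 for all tested loci. All 11 passed the filter in HET and WT libraries alone. Of the 15177 tested loci that did so, 1227 were called higher. Tert, the catalytic subunit, had 4.52 ± 0.418 FPKM in KO (SD, n = 6), 4.02 ± 0.244 FPKM in HET (SD, n = 3) and 4.50 ± 0.456 FPKM in WT heads (SD, n = 5). Its KO minus WT difference of 0.01 log2 had a limma-trend adjusted p of 0.965, and its sign turned with a common median and after quantile normalization. In the authors' matrix it was called higher, as given below. FPKM is scaled by length, though the length used for each locus is not in the files.

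The 1 called member was Nop10, a small core protein of box H/ACA particles. It had 48.0, 39.6, 49.4, 43.2, 45.1 and 44.3 FPKM in KO1 to KO6, 35.5, 37.99 and 37.2 FPKM in HET3 to HET5, and 33.3, 35.2, 32.99, 38.3 and 32.6 FPKM in WT1 to WT5. All KO libraries were above all others, by a small margin, with a KO minus WT difference of 0.38 log2 (SE 0.06, limma-trend adjusted p = 1.2e-04) and a KO minus HET difference of 0.28 log2 (limma-trend adjusted p = 0.0074). Dkc1, which encodes the pseudouridine synthase dyskerin, had 43.9 ± 5.40 FPKM in KO, 45.3 ± 3.75 FPKM in HET and 43.9 ± 3.95 FPKM in WT heads (KO minus WT -0.01 log2, limma-trend adjusted p = 0.977). Nhp2 and Gar1, the other core proteins, differed by -0.01 and 0.06 log2. The assembly factor genes Naf1 and Shq1 differed by 0.11 and -0.12 log2, and the ATPase genes Ruvbl1 and Ruvbl2, which help to assemble the particle, by -0.05 and 0.01 log2. Wrap53, whose protein TCAB1 takes telomerase to Cajal bodies and which shares a locus with Efnb3, differed by -0.10 log2, and Tep1, a telomerase-associated protein gene, by -0.21 log2. None of these passed the test with the FPKM values as deposited. The authors' matrix gave another count, and after quantile normalization Tep1 was called lower (-0.57 log2, limma-trend adjusted p = 0.0041). In the matrix the median over all tested loci was 0.20 log2 higher in KO than in WT, and 4 of the 11 were called higher, Tert by 0.45 log2 (limma-trend adjusted p = 0.0154), Naf1 by 0.48 log2 (2.2e-04), Shq1 by 0.30 log2 (0.0423) and Nop10 by 0.53 log2 (1.5e-06). The median difference of the 11 was 0.14 log2 in the matrix, below that of all loci. In all, 6969 loci were called higher in the matrix, against 3463 with the FPKM values as deposited.

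For genes of the processing and decay of telomerase RNA, the count depended on the scaling. Of 33 tested loci, 2 were called higher and 2 lower in KO against WT with the FPKM values as deposited, with a median difference of -0.01 log2, where 19.0% of all tested loci were called higher and 5.61% lower. All 33 passed the filter in HET and WT libraries alone, and of the 15177 tested loci that did so, 1227 were called higher. With the matrix values 20 of the 33 were called higher and 1 lower, with a median difference of 0.19 log2 against 0.20 log2 for all tested loci. There, 6969 loci were called higher and 269 lower in all. Zcchc8, the gene that differs between the groups, was itself on this list and fell by 1.39 log2 in KO heads (SE 0.15, limma-trend adjusted p = 2.1e-06). Srrt, whose protein ARS2 links capped nuclear RNA to the decay machinery and which shares a locus with Mir7036, had 143 ± 9.05 FPKM in KO, 102 ± 7.48 FPKM in HET and 116 ± 9.26 FPKM in WT heads (0.31 log2, limma-trend adjusted p = 0.0013). Skiv2l2 and Rbm7, the partners of ZCCHC8, differed by 0.03 and -0.01 log2, and the tailing and trimming enzyme genes Papd5 and Parn by -0.09 and 0.06 log2, none of which passed the test. The other 2 calls were close to the threshold. Dcp2, the mRNA decapping enzyme gene, was 0.22 log2 higher (limma-trend adjusted p = 0.0236, and 0.0556, 0.0557, 0.0628 and 0.0563 without WT2, WT3, WT4 or KO4). With the replicate number as a block its adjusted p was 0.0891. Toe1, whose protein trims the 3′ ends of small nuclear RNAs and, in human cells, of telomerase RNA, differed by -0.14 log2 as deposited and by 0.12 log2 in the authors' matrix, and its call (limma-trend adjusted p = 0.0473) was kept in 9 of 24 alternatives.

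Telomere-binding proteins were represented by 11 tested shelterin and CST loci, of which 1 was called higher and 0 lower, against 19.0% and 5.61% of all tested loci, with a median difference of -0.04 log2. All 11 passed the filter in HET and WT libraries alone, where 1227 of 15177 tested loci were called higher. An unadjusted limma-trend p under 0.05 was found for 6276 of all 18217 tested loci, in either direction. Of the 11 on this list, 1 was higher and 2 were lower at that threshold. The called one was Tinf2, which encodes the shelterin bridge TIN2, with 19.6 FPKM in KO, 17.1 FPKM in HET and 16.8 FPKM in WT heads (0.22 log2, limma-trend adjusted p = 0.0183, 0.0579 without WT2 and 0.0766 with the replicate number as a block). With the matrix values 6 of these 11 were called higher, where 6969 loci were called higher in all. Their median difference there was 0.1998 log2, against 0.2049 log2 for all tested loci. In HET against WT, limma-trend called 0 loci of these lists and of the lists that follow, and at an unadjusted p under 0.05 it gave 1 lower locus of the telomerase particle, 3 lower of the processing list and 1 lower of the box H/ACA list. Of all 18217 tested loci, 354 had such a p in HET against WT.

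Loci of some other short nuclear RNAs that normally lack a poly(A) tail were higher in KO heads too, while their lists as a whole gave mixed values. Of 38 tested loci that name a Snora or Scarna RNA (box H/ACA and Cajal body RNAs, which guide RNA modification), 9 were called higher and 0 lower in KO against WT, with a median difference of 0.08 log2. Called were 23.7%, where 19.0% of all tested loci were called higher. Of the loci that passed the filter in HET and WT libraries alone, 8 of 34 on this list were called higher, against 1227 of 15177 over all tested loci. Loci that name the small RNA alone had the largest differences in both directions, and the largest negative ones, -2.20 log2 at Snora31, -1.67 log2 at Snora78 and -0.82 log2 at Snora69, did not pass the test. Snora20 was listed at 28.003, 26.1, 33.5, 0, 13.5 and 4.63 FPKM in KO1 to KO6 and at 0 in all HET and WT libraries (limma-trend adjusted p = 0.0021), so it passed the filter only through KO libraries. Snora16a had 63.1, 142, 134, 110, 144 and 148 FPKM in KO1 to KO6, 11.4, 5.90 and 41.8 FPKM in HET3 to HET5, and 12.2, 9.69, 12.7, 12.6 and 22.7 FPKM in WT1 to WT5. Its KO libraries were above all others, and its KO minus WT difference was 3.14 log2 (SE 0.43, limma-trend adjusted p = 9.0e-05). Scarna2 had 5.30 ± 2.05 FPKM in KO (SD, n = 6), 1.75 ± 0.359 FPKM in HET (SD, n = 3) and 1.63 ± 0.801 FPKM in WT heads (SD, n = 5), and its KO and WT libraries overlapped slightly (1.66 log2, limma-trend adjusted p = 0.0010).

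A pair of further loci with a large rise, Snora30 and Snora41, did not pass the test in the fit of all libraries. Snora30 was at 0 in KO1 and between 16.7 and 63.5 FPKM in the other KO libraries, at 8.90 FPKM in HET4 and at 0 in the other HET libraries, and at 9.72 FPKM in WT2 and at 0 in the other WT libraries (limma-trend adjusted p = 0.0550). It was called with pseudocounts of 0.5 and 1 (0.0417 and 0.0350) and without WT2, HET4 or KO1 (0.0201, 0.0440 and 0.0046). Snora41 ranged between 5.17 and 65.7 FPKM in KO, 0 and 3.75 FPKM in HET and 0 and 16.1 FPKM in WT heads (limma-trend adjusted p = 0.110), and was called with sex as a covariate (0.0402). The remaining 6 calls were loci that also name a host gene, where reads of the host and of the small RNA cannot be told apart. They ran between 0.25 log2 at the locus of Atg16l1 and Scarna6 and 0.58 log2 at that of Snhg7 and Snora17, and the calls of these and of the locus of Dancr and Snora26 (0.44 log2) were each lost in at least 9 of 24 alternatives. Loci that name the small RNA alone can also have a range far wider than the RNA, as Snora20 does (chr17:12911349-12960747). Whether their values hold other RNA was not tested.

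Among other short stable RNAs, 5 of 14 tested loci were called higher and 0 lower, where 19.0% of all tested loci were called higher. Of these 14, 4 passed the filter only through KO libraries, and so did 3 of the 5 called ones, Rnu11, Rnu3b1 and Rnu3b4, which had to be higher in KO to be tested, so the count says nothing about the list as a whole. Of the 10 that passed in HET and WT libraries alone, 2 were called higher, against 1227 of 15177 over all tested loci. The called ones were all small nuclear or U3 RNA genes. A locus of Rnu11, the U11 RNA of the minor spliceosome, had 19.1, 52.2, 25.7, 27.6, 67.5 and 16.8 FPKM in KO1 to KO6, was listed at 0.831 FPKM in HET5 and 0 in the other HET libraries, and at 1.97 FPKM in WT3 and 0 in the other WT libraries (limma-trend adjusted p = 2.3e-05). A second tested locus of that name, with means of 3.90 FPKM in KO and 2.08 FPKM in WT heads, did not pass the test (1.80 log2, limma-trend adjusted p = 0.559). Rnu3b1, a gene for the U3 RNA of ribosomal RNA processing, had 13.95 ± 3.87 FPKM in KO, against 0.0360 FPKM in HET and 0.129 FPKM in WT heads (6.04 log2, limma-trend adjusted p = 1.0e-09). Rnu3b4, another U3 gene, had 5.64 to 13.7 FPKM in KO libraries, was at 0.187 FPKM in HET5 and 0 in the other HET libraries, and was listed at 0 in all WT libraries. Rnu2-10, a gene for the U2 RNA of the spliceosome, had 158 ± 38.03 FPKM in KO, 57.1 ± 40.0 FPKM in HET and 56.8 ± 27.4 FPKM in WT heads (1.57 log2, limma-trend adjusted p = 0.0057), and with Rnu1b6, given above, it completes the 5. Copies of the U1, U2 and U3 genes are near-identical, so the share of each copy is uncertain.

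Genes of DNA replication and mitosis, which follow the number of dividing cells, had small differences. Of 18 tested loci 4 were called higher (22.2%) and 0 lower, where 19.0% of all tested loci were called higher, with a median difference of 0.11 log2. All 18 passed the filter in HET and WT libraries alone. Of all 15177 tested loci that did so, 1227 were called higher. Mki67, a marker of cycling cells, had 47.3 FPKM in KO, 38.5 FPKM in HET and 40.7 FPKM in WT heads (0.21 log2, limma-trend adjusted p = 0.0277), and the loci of Top2a, Rrm2 and Ccnb1 were higher by 0.19, 0.18 and 0.14 log2. All 4 calls were lost without a filter and with libraries scaled to a common median. In the authors' matrix 14 of the 18 were called higher, where 6969 loci were called higher in all. The median difference of the list there was 0.21 log2, against 0.20 log2 for all tested loci. Without KO5, 7 of the 18 were called higher, and over all loci leaving out single libraries gave 3232 to 3620 higher. The summed level of the 19 loci on this list was 1558 to 1780 FPKM in KO, 1496 to 1621 FPKM in HET and 1531 to 1693 FPKM in WT libraries, so the groups overlapped.

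**Figure D4:**
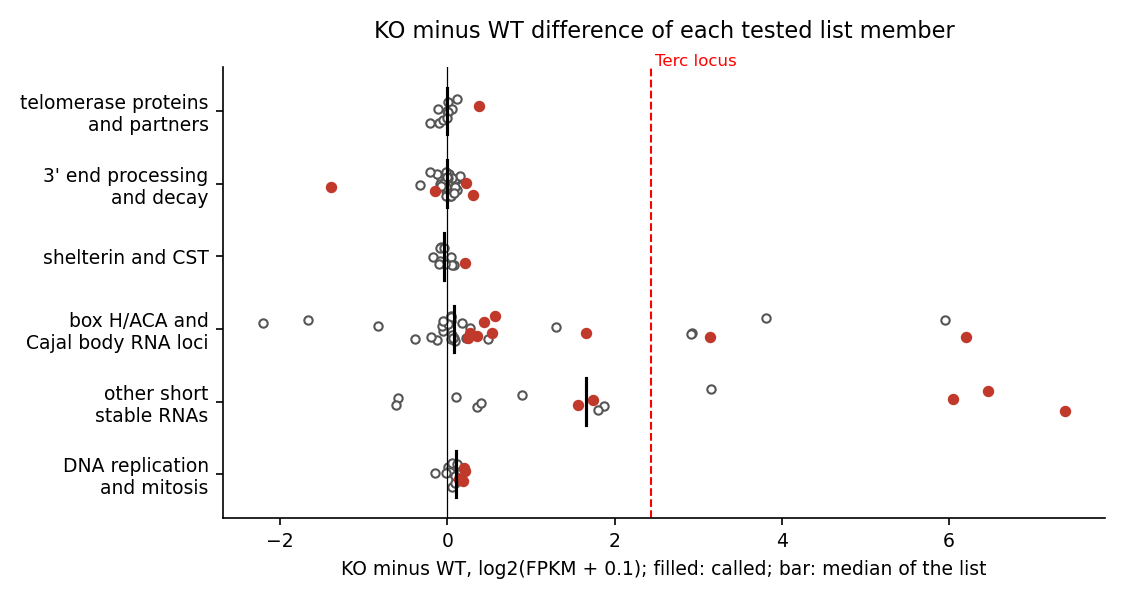
KO minus WT difference of mean log2(FPKM + 0.1) for each tested member of 6 gene lists, filled where called (limma-trend adjusted p under 0.05), with the median of each list as a bar and the Terc difference of 2.44 log2 as a dashed line. Members of the telomerase particle list lie between -0.21 and 0.38 log2, and members near or above the dashed line are found in the 2 lists of short RNAs.

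The loci whose values across the 14 libraries were most like those of Terc were scattered over the genome. Likeness was measured as the root mean square difference of log2(FPKM + 0.1) after each locus was centred on its own mean, and its median over the tested loci was 1.22. The 8 nearest loci with a gene name were at 0.210 to 0.241. They were, nearest first, RP23-381K3.5, 1 of the 2 loci named P4hb, 1 of the 3 named Gmds, Cmbl, 1 of the 2 named Cstad, RP23-45G4.2, AA543186 and RP24-177A17.5. Cmbl, which encodes a hydrolase, was at a level similar to that of Terc, with 9.35 ± 0.814 FPKM in KO (SD, n = 6), 1.84 ± 0.279 FPKM in HET (SD, n = 3) and 1.46 ± 0.121 FPKM in WT heads (SD, n = 5). Their KO minus WT differences of 2.17 to 2.59 log2 follow from this choice. None of the 8 lies on chromosome 3. A further 8 unnamed loci were nearer to Terc than the eighth of these, the nearest at 0.205. Rnu1b6, on the same chromosome, was at 0.451, and Zcchc8 at 1.79.

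Within the KO group, the Terc level was set beside other measures taken in the same libraries. The first was the median shift of the 2004 tested unnamed loci against their WT level, which was 1.86 log2 in KO1, 2.30, 2.33 and 2.36 log2 in KO2, KO3 and KO4, 2.60 log2 in KO5 and 2.49 log2 in KO6. It was -0.04 to 0 log2 in HET and -0.02 to 0 log2 in WT libraries. The size of the KO shift is partly fixed by the filter, since 1572 of the 2004 loci passed it only through KO libraries. Across the 6 KO libraries, Terc and this shift had the same rank order (Spearman's rho = 1, Pearson's r = 0.814), and r was 0.974 without KO1 and KO5. This relation is given as a description alone, because most of its loci were admitted through the libraries in which it is read. The permutation p-values below are two-sided and adjusted over 5 relations, of which this is 1. The smallest that 6 libraries allow is 0.00278. Over the 432 unnamed loci that passed in HET and WT libraries alone, chosen after the data had been seen, the shift was 0.12 to 0.50 log2 in KO, -0.08 to 0.06 log2 in HET and -0.01 to 0.05 log2 in WT libraries. Its relation with Terc (r = 0.833, permutation p = 0.0389, adjusted p = 0.0486; rho = 0.714, permutation p = 0.136, adjusted p = 0.136) rested on KO1 and KO5, without which r was 0.0253. The second was the RNA of Zcchc8 itself. KO1 was the lowest and KO5 the highest KO library for both Zcchc8 and Terc (r = 0.888, permutation p = 0.00556, adjusted p = 0.00926; rho = 0.943, permutation p = 0.0167, adjusted p = 0.0278), and r was 0.916 without KO1 and KO5. The relation of Terc to relative depth did not pass the test (r = 0.515, permutation p = 0.314, adjusted p = 0.314; rho = 0.771, permutation p = 0.103, adjusted p = 0.128; r = 0.636 without KO1 and KO4). In the authors' matrix, Terc and Zcchc8 had r = 0.916 and rho = 1 (permutation p = 0.00278 and adjusted p = 0.00694 for each), and r was 0.887 without KO1 and KO5. The relation with Zcchc8 runs opposite to that between genotypes, where KO libraries had less Zcchc8 and more Terc. Each relation rests on 6 libraries that also share their scaling, and only 4 remain when 2 are left out.

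**Figure D5:**
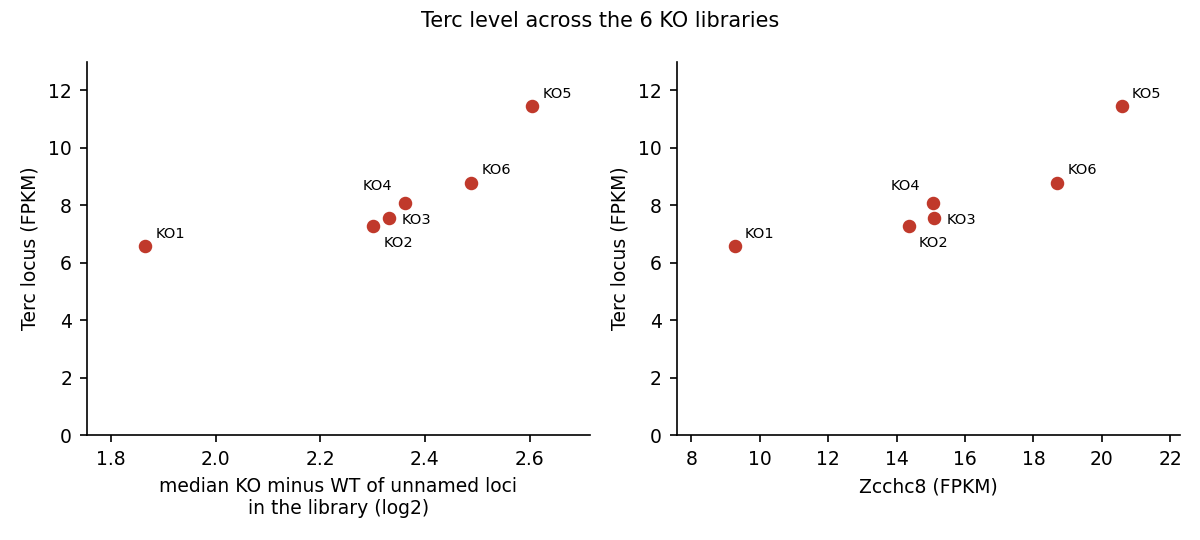
FPKM of the Terc locus in the 6 KO libraries against the median shift of the 2004 tested unnamed loci from WT (log2, left) and against Zcchc8 FPKM (right), with each library labelled. KO1 is lowest and KO5 highest in all 3 measures. Of the 2004 loci, 1572 passed the filter only through KO libraries.

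The heads differed in some cell type markers as well. Head and brain markers marked the tissue as labelled, with summed levels over 12 loci of 491 to 667 FPKM in KO, 538 to 568.3 FPKM in HET and 517 to 597 FPKM in WT libraries, and Otx2, a forebrain and midbrain transcription factor gene, at 34.5, 32.1 and 31.8 FPKM in KO, HET and WT heads. Of 11 tested head and brain loci 2 were called higher and 0 lower, the locus of Sox2 (0.23 log2) and 1 of 3 loci named Dcx (2.86 log2), where 19.0% of all tested loci were called higher. That Dcx locus had means of 0.752, 0.0135 and 0 FPKM in KO, HET and WT heads, so it passed the filter only through KO libraries. The Dcx locus with the highest level had 63.2, 62.1 and 62.3 FPKM in KO, HET and WT heads and was not called. Of the 10 lens loci, all of them tested, 0 were called higher and 8 lower in KO against WT (median -1.36 log2), where 5.61% of all tested loci were called lower, with summed levels of 35.3 to 163 FPKM in KO, 134 to 219 FPKM in HET and 122 to 173 FPKM in WT libraries. Of the skeletal muscle loci 2 of 7 tested were called lower and 0 higher (median -1.02 log2), with summed levels over 9 loci of 25.0 to 133 FPKM in KO, 104 to 138 FPKM in HET and 87.0 to 171 FPKM in WT libraries. The summed levels of the erythroid loci overlapped between the groups, with 6956 to 9575 FPKM in KO, 5697 to 9452 FPKM in HET and 4865 to 8858 FPKM in WT libraries. Every marker gene except Tubb3, which was not matched, had a locus above 0 in all 3 groups. The part of these markers in the Terc difference was not tested.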

How the data were processed

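RNA-seq of 14 libraries of whole E12.5 heads was used. The authors deposited 1 table of FPKM values per library, made by Cuffdiff per the file headers, and a matrix of log2 values whose columns share their quartiles and which is blank where FPKM is 0. Tools listed without roles in the submitters' processing notes are TopHat2 2.1.0, Cuffdiff, Partek, FastQC 0.10.0 and bcl2fastq, with the build mm10. The gene models, filters and strand setting are not given in these sources. An FPKM of 0 can be no fragment or no estimate. No counts were recovered, so precision comes from the spread between libraries alone.

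From the FPKM values, log2(FPKM + 0.1) was computed, which understates changes of low loci. A locus was tested if 3 or more libraries reached 0.5 FPKM (18217 of 67811). Genotypes were compared with limma-trend, robust (limma 3.58.1, R 4.3.3), in 1 fit of all 14 libraries with 1 mean per genotype, and p-values were adjusted by Benjamini-Hochberg over all tested loci at 0.05. A locus that passed is said to be called. Single values were compared by exact permutation (scipy 1.17.1, Python 3.11.15, pandas 2.3.3, numpy 2.4.6, matplotlib 3.10.9). The fit was tested on simulated data.

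The named loci are Terc, Zcchc8, its neighbours within 10 kb, the nearest protein-coding locus on each side, the 8 named loci of most similar profile, all telomerase particle members, each called list member, and the 3 largest differences of both short RNA lists. Rps7, Gm22614, Otx2 and further uncalled list members were added after their values were seen. The members and lists were chosen with earlier results of these data known. Annotation and sequences came from GENCODE M21 and lengths also from RefSeq (GRCm38.p6), both on mm10. Of the list names, Pabpn1l, Zc3h18, Cpsf3l, Obfc1 and Tubb3 were not matched in the tables and were not analysed here.

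Alternatives were pseudocounts of 0.5 and 1, no filter, a stricter filter (1 FPKM in 6 libraries), a common median, quantile normalization, the authors' matrix, the replicate number as a block, the compared groups alone, sex as a covariate (male were KO2, KO3, HET3, WT1, WT3 and WT4) and each library left out. The relation of Zcchc8 and Terc in the authors' matrix and the shift of unnamed loci with the filter on HET and WT libraries alone were added after the data had been seen. In no pair of the libraries did more than 2 loci above 0 hold exactly the same value, of at least 30173 compared.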

Additional observations from a re-analysis of the deposited data

Results flagged for a closer look

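In 90 groups of 5 or 6 libraries over 46 loci, the lowest or highest library was compared with the others by Dixon's ratio, and 7 groups held a library that stood apart. Chance gives about 1 in 20 such groups where values are not tied. For Snora30 and Rnu11 in WT the other 4 libraries were all at 0, which fixes the ratio at 1, so that rate does not apply to them. Terc itself had none.

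Among telomerase particle loci, Dkc1 was low in KO5, at 33.3 FPKM against 44.2 to 48.6 FPKM in the other KO libraries. Gar1 was low in WT3, at 55.0 FPKM against 68.0 to 72.4 FPKM in the other WT libraries, and the shared locus of Efnb3 and Wrap53 was low in WT5, at 52.2 FPKM against 58.1 to 60.1 FPKM. Among short RNA loci, Snora16a was high in WT5, at 22.7 FPKM against 9.69 to 12.7 FPKM, Snora30 was at 9.72 FPKM in WT2 and Rnu11 at 1.97 FPKM in WT3, with the other WT libraries of both at 0. Of the loci with a profile like that of Terc, RP24-177A17.5 was low in KO1, at 2.95 FPKM against 4.05 to 4.597 FPKM in the other KO libraries. No cause of these values was tested.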

How the results depend on the processing

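The KO against WT difference of Terc kept its sign and its call in all 24 alternatives, between 1.91 log2 (pseudocount 1) and 2.77 log2 (the authors' matrix, 2.56 relative to the shift of the median of all loci), with limma-trend adjusted p between 3.9e-09 and 4.7e-06. With the replicate number as a replicate block it was 2.42 log2 (adjusted p = 4.7e-06), and leaving out single libraries gave 2.34 to 2.53. Same-numbered libraries did not deviate together (correlation -0.114 to 0.1004 over 11 pairs, median 0.00067), so the numbers were not taken to pair them. Without single libraries, the HET against WT difference was 0.04 to 0.37 log2 and the KO against HET difference 2.06 to 2.40 log2. The KO minus HET difference in Terc FPKM was 6.02 to 6.99 when single libraries were left out. It was 6.74, 6.41 and 6.79 without HET3, HET4 or HET5, with an exact permutation p of 0.0714, the smallest that 6 against 2 libraries allow.

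Counts of calls moved more, and the cause was not tested unless given. In KO against WT, 3463 loci were higher (1491 with the stricter filter, which tests fewer loci, 6969 in the authors' matrix, 3232 to 3620 without single libraries) and 1022 lower (3801 after quantile normalization, 269 in the matrix, 645 with the replicate block, 675 to 1247 without single libraries, with 675 without WT4 and 676 without KO4). In HET against WT, 1 was higher (0 with either other pseudocount, the stricter filter, the matrix or the block, 2 with no filter, quantile normalization or the compared groups alone, 0 to 2 without single libraries) and 0 lower (1 in the matrix and with the compared groups alone, 0 to 1 without single libraries). In KO against HET, 3265 were higher (1403 stricter filter, 2092 quantile, 2837 to 3398 without single libraries) and 794 lower (3256 quantile, 217 matrix, 409 block, 451 compared groups alone, 267 to 932 without single libraries, with 267, 354 and 525 without HET3, HET4 and KO4). Over the 6 gene lists, 22 members were higher (56 in the matrix, 15 to 25 without single libraries) and 2 lower (1 with no filter, the stricter filter, the matrix or the compared groups alone, 1 to 4 without single libraries).

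Signs turned at small differences, all uncalled with the FPKM values as deposited except Toe1 (0.12, uncalled, in the matrix). In the matrix Nhp2 was 0.14, the Wrap53 locus 0.029, Tep1 0.11, Ruvbl1 0.074 and Dkc1 0.13, and Shq1 was 0.30 and called. After quantile normalization Nhp2 was 0.010, Dkc1 0.0045 and Tert -0.081, and with a common median Tert was -0.0066 and Ruvbl2 -0.0057. With the replicate block Tert was -0.0058 and Ruvbl2 -0.0083, and with sex as a covariate Ruvbl2 was -0.024. Without single libraries Dkc1 was -0.061 to 0.072, Gar1 -0.0086 to 0.090, Nhp2 -0.057 to 0.043, Ruvbl2 -0.025 to 0.074 and Tert -0.034 to 0.057.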
